A study of Mus musculus with 8 samples.

Results

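Hyaluronan, versican and valve matrix genes were followed through E12.5 mouse hearts and epicardial cultures on Illumina bead arrays. The genes were Has2, Vcan, Hapln1, Cd44, Tnfaip6 and Scx, and each was described through every probe that carried its symbol (Vcan also as Cspg2). A named probe was found for 5 of the 6 genes, so 18 of the 45281 probes and 5 of the 19057 named genes are described, and Tnfaip6 (TSG-6, which transfers inter-alpha-inhibitor heavy chains onto hyaluronan) is named only. Hearts, taken without the conotruncal region, came from embryos with an epicardium-specific knockout of both PDGF receptor genes, Pdgfra and Pdgfrb, and from wild type controls, all of mixed C57 background. Primary epicardial cultures came from the same stage, were allowed 3 days of outgrowth and then 2 more days in culture without the hearts. They comprised a receptor knockout culture without a stated treatment, a wild type culture given 20 ng/ml PDGF-BB for the last 24 h, another given it for the last 12 h, and a wild type control culture labelled as vehicle treated. The remaining pair were wild type cultures given either 20 ng/ml PDGF-BB, 10 ng/ml human TGF-β1 and 25 ng/ml bFGF (the 3-factor culture) or vehicle over those last 2 days. Each group was 1 array that held pooled RNA of at least 3 hearts or cultures, and there were no replicates. The labels do not name the Cre driver behind the knockout, and the position of the probes within the receptor genes was not used here.

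Hyaluronan is a long sugar polymer made at the cell surface by hyaluronan synthases, of which Has2 is the main enzyme of the embryonic heart. Versican (Vcan) is a large chondroitin sulfate proteoglycan that binds hyaluronan, and the link protein Hapln1 locks that bond; together they swell the cardiac jelly from which the endocardial cushions and then the valves form. Mouse embryos without Has2 or without Vcan fail to form cushions. Cd44 is the main cell surface receptor for hyaluronan and is carried by mesenchymal cells and leukocytes alike. Scx (scleraxis) is a transcription factor of tendon progenitors and of the fibrous tissue of developing valves.

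The genes lie on 3 chromosomes of GRCm38.p6 (RefSeq). Hapln1 (chr13:89540529-89611832, plus strand) and Vcan (chr13:89655309-89743027, minus strand) are neighbours that converge on each other, 43476 bases apart, with 0 annotated genes between them. Has2 lies at chr15:56665627-56694546 and overlaps the antisense gene Has2os, and Scx at chr15:76457411-76459468 overlaps Bop1. Cd44 lies at chr2:102811141-102901669 on the minus strand. The strand that each probe reads was not used here, so signal from an overlapping gene cannot be told apart from that of the named gene.

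RefSeq promoters (GRCm38.p6, 250 bases before to 50 after the start used in that table) were given for Vcan, Hapln1 and Cd44 among the genes with a named probe. For Vcan and Hapln1, and by a few bases for Cd44, that start lies inside the annotated gene span. They are shown because Vcan and Cd44 were both highest among the cultures with the 3 factors, while Hapln1, the neighbour of Vcan, was detected in hearts alone. Capitals mark matches on either strand to a GC box (GGGCGG) or an E-box (CANNTG).
Vcan chr13:89742463-89742762, minus strand: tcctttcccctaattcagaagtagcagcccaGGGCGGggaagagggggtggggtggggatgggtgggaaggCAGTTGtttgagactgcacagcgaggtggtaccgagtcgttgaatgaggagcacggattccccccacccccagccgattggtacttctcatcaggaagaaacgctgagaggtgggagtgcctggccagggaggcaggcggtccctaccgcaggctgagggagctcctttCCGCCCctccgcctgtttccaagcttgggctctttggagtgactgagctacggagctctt
Hapln1 chr13:89540386-89540685, plus strand: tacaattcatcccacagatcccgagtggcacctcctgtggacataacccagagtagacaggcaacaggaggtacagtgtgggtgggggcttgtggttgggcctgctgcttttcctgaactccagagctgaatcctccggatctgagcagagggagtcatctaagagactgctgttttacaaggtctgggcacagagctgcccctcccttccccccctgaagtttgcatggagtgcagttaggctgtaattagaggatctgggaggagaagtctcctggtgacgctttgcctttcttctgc
Cd44 chr2:102901616-102901915, minus strand: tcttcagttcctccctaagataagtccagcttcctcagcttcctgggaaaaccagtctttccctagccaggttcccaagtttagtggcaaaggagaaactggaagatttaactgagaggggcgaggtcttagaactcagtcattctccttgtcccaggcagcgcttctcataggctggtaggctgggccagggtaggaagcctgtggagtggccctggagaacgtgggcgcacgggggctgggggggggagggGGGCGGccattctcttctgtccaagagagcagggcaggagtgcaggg
The Vcan window held 2 GC boxes and 1 E-box, that of Cd44 1 GC box just after the start, and that of Hapln1 neither motif. For comparison, 35.7% of 32851 promoters of the same length held a GC box and 72.3% an E-box. The SMAD box CAGACA (in 21.0% of promoters), the AP-1 site TGANTCA (7.81%) and the letters TATAAA (13.6%) were in none of these 3 windows. The Vcan window had 12 CpG sites, that of Cd44 6 and that of Hapln1 3, against a median of 7 over all promoters. These are matches of letters and do not show that a factor binds.

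Levels below are log2 normalized intensities and differences are on the same log2 scale unless a fold is named. A gene was detected where its detection p was under 0.01 on an array and measured in a comparison where it was detected on at least 1 of the 2 arrays. It was called, and is written as higher or lower, where it differed by at least 1 and was detected on the brighter array. Where the dimmer array did not detect it, a lower bound set by the detection limit is printed, as "at least" so many fold. With 1 array a group, no comparison of 2 arrays has a test.

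Of the probes on each array, 32.1% to 36.8% were detected. Pdgfra, a target of the knockout, had a level of 5.79 in knockout hearts and 7.41 in control hearts. In culture it was 10.47 with the knockout, against 11.59 in the control culture and 10.19 in the vehicle culture. The other target, Pdgfrb, was at 5.11 in knockout hearts (not detected) and 5.61 in control hearts, and at 5.84 in the knockout culture, against 6.11 in the control and 6.17 in the vehicle culture. The control and vehicle cultures, both untreated and wild type, give the only measure of spread between pools: their levels differed by a median of 0.37 over the measured genes, with 1.02 as the 90th percentile. By the same rule 3.29% of 9757 measured genes were higher, and 7.16% lower, in the vehicle than in the control culture. These arrays also lie in different sets of the authors' own normalization. Cardiomyocyte markers were all detected in both hearts (13 of 13), and in the cultures 7 to 9 of 9 epicardial and mesothelial markers, although Tbx18, a transcription factor of the epicardium, was detected only in the PDGF-BB 24 h culture. Macrophage and leukocyte markers averaged 9.70 to 11.49 in the cultures and 6.91 to 7.18 in the hearts. The endothelial genes Pecam1, Cdh5 and Tie1 were detected in hearts and in no culture. Other endothelial and endocardial markers were detected there: 3 to 6 of 10 in each culture, and 9 of 10 in each heart. Tek (8.89) and Flt1 (7.96) were among those detected in the vehicle culture. In such bulk RNA, fewer cells of a type and less RNA per cell cannot be told apart.

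**Figure D1:**
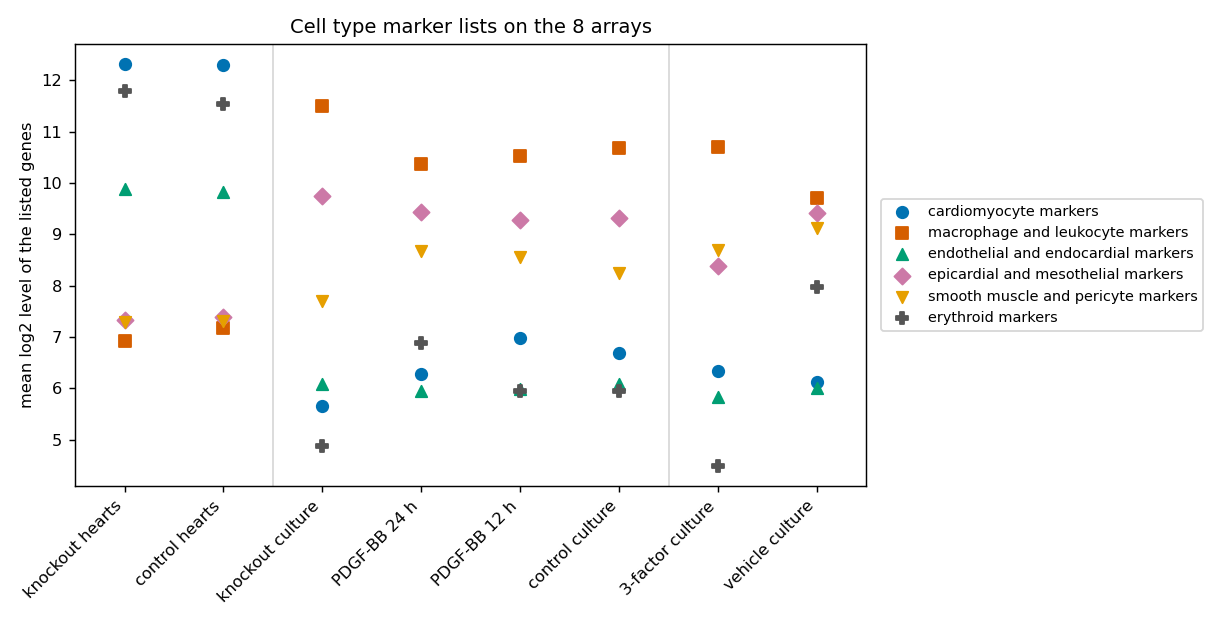
Mean log2 level of 6 cell type marker lists on the 8 arrays, 1 point per list and array. Cardiomyocyte and endothelial markers lie highest in the hearts, macrophage markers highest in the knockout culture at 11.49, and among the cultures erythroid markers range from 4.49 in the 3-factor culture to 7.98 in the vehicle culture.

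Has2, the synthase, was detected on 6 arrays. Its level was 4.46 in knockout hearts and 4.99 in control hearts, below detection in both. It was 5.28 in the knockout culture, 5.35 with PDGF-BB at 24 h, 6.48 with PDGF-BB at 12 h and 6.20 in the control culture, and 8.05 in the 3-factor culture against 5.69 in the vehicle culture. The 3-factor culture therefore stood highest, and the knockout, PDGF-BB 24 h and vehicle cultures lay close to the lowest detected level of their arrays, which was 5.25 to 5.41. In the order of the cultures, no neighbours lay further apart than the untreated cultures did (a difference of -0.51, vehicle minus control), except PDGF-BB at 12 h and the 3-factor culture.

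Vcan, the proteoglycan, was brightest in the hearts. Its level was 9.15 in knockout hearts and 9.20 in control hearts. Among the cultures it was 4.83 in the knockout culture (not detected), 5.64 with PDGF-BB at 24 h, 5.86 with PDGF-BB at 12 h and 4.98 in the control culture (not detected), and 8.14 in the 3-factor culture against 6.40 in the vehicle culture. The 3-factor culture was the nearest to the hearts, and both PDGF-BB cultures lay between the vehicle culture and the undetected level of the control culture. Of its 6 probes, 3 were detected on at least 1 array. A further Vcan probe read 7.33 in knockout hearts and 7.13 in control hearts, and 6.94 in the 3-factor culture against 5.74 in the vehicle culture, with no detection in the control, knockout and PDGF-BB cultures. The other detected one read 6.63 in knockout and 6.58 in control hearts and 6.01 in the 3-factor culture, with no detection in any other culture. All 3 probes thus placed the hearts first and the 3-factor culture above the other cultures.

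Hapln1, the link protein, was detected in the hearts alone. Its level was 6.34 in knockout hearts and 5.74 in control hearts, while the 6 cultures spanned 0.13 in all and none detected it. It had 1 probe, which in control hearts lay close to the lowest detected level of the array (5.47).

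Cd44, the receptor, was detected on all 8 arrays. Its level was 9.48 in knockout hearts and 9.49 in control hearts. In culture it was 9.99 with the knockout, 10.82 with PDGF-BB at 24 h, 10.69 with PDGF-BB at 12 h and 10.16 in the control culture, and 12.01 with the 3 factors against 11.03 with vehicle. Every culture lay above the hearts and the 3-factor culture was highest, while both PDGF-BB cultures fell between the untreated cultures at 10.16 and 11.03. Of its 9 probes, 1 further probe was detected everywhere and gave the same end points, with 7.71 in knockout hearts, 7.87 in control hearts, 9.74 with the 3 factors and 8.93 with vehicle. The others were never detected, except 1 probe just past the threshold on 2 arrays.

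Scx, the transcription factor, was also detected on every array and spanned 2.12, against 2.53 for Cd44. Its level was 6.23 in knockout hearts and 6.88 in control hearts. In culture it was 7.07 with the knockout, 6.71 with PDGF-BB at 24 h, 6.91 with PDGF-BB at 12 h and 6.64 in the control culture, and 8.35 with the 3 factors against 6.94 with vehicle. The 3-factor culture was the only array above 7.07, the PDGF-BB cultures lay between the untreated ones, and the knockout culture lay just above both.

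**Figure D2:**
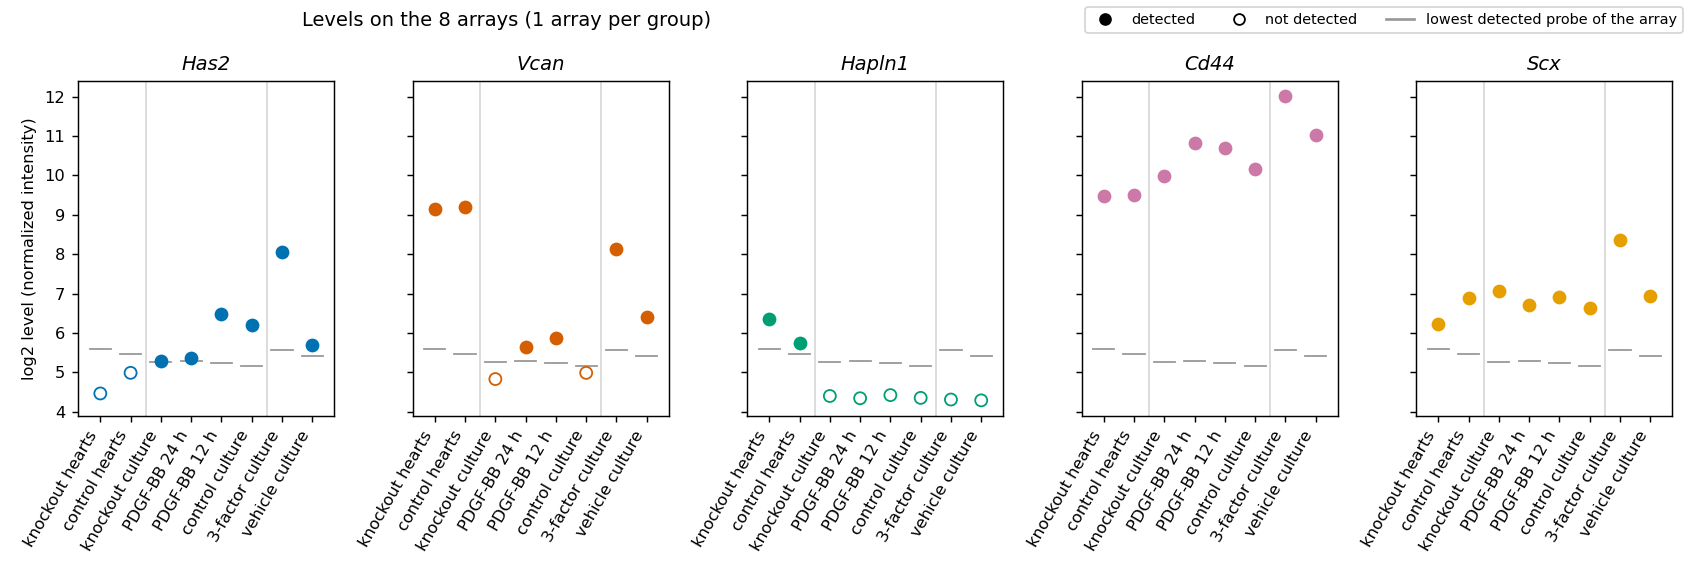
Log2 levels of Has2, Vcan, Hapln1, Cd44 and Scx on the 8 arrays, 1 point per array, filled where detected and open where not, with the lowest detected level of each array as a grey bar. The 3-factor culture has the highest culture level of Has2 (8.05), Vcan (8.14), Cd44 (12.01) and Scx (8.35), and Hapln1 is detected in the hearts alone.

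**Figure D3:**
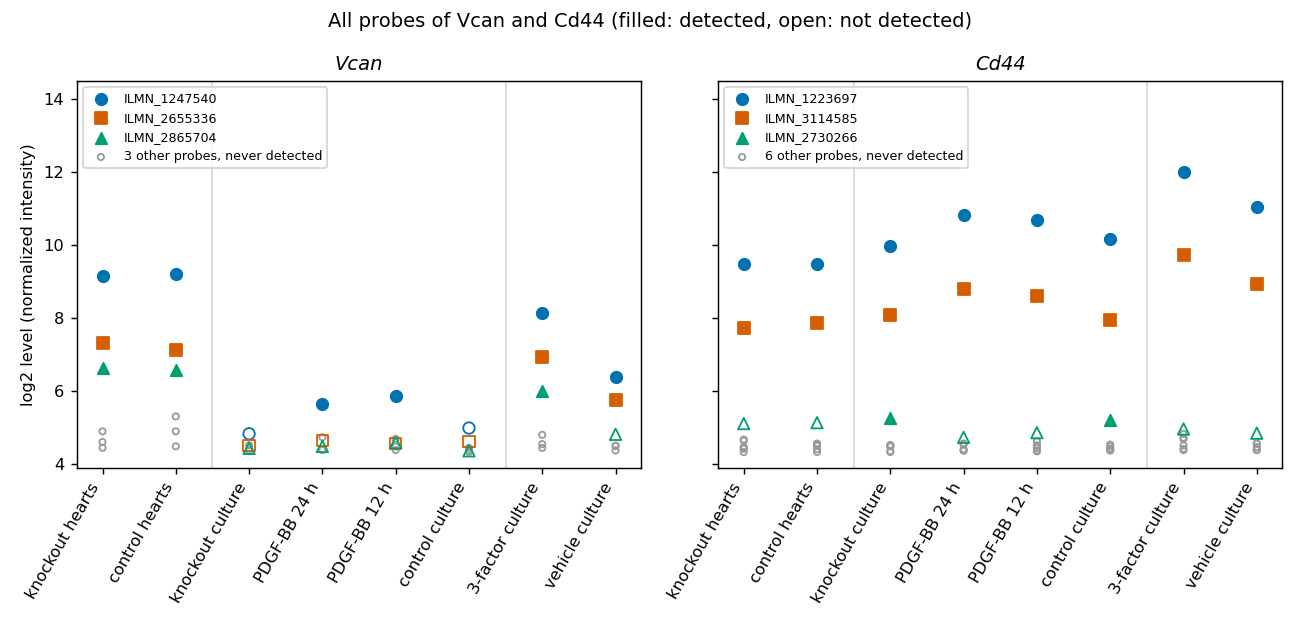
Log2 levels of all 6 Vcan probes and all 9 Cd44 probes on the 8 arrays, filled where detected. The 3 detected Vcan probes share the high hearts and the raised 3-factor culture, and the 2 Cd44 probes detected on every array share their order between the 3-factor and vehicle cultures.

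The comparison of the 3-factor culture with the vehicle culture asks how 2 days of PDGF-BB, TGF-β1 and bFGF together changed transcripts of the epicardial culture. Has2 was 5.13-fold higher in the 3-factor culture (2.36 on the log2 scale), Vcan 3.36-fold (1.75) and Scx 2.66-fold (1.41). Cd44 differed by 0.98, just short of the rule. The called genes were 3 of 4 measured, all higher, where 5.28% of all 9183 measured genes were higher and 5.06% lower by the same rule. The median difference of the 4 was 1.58, against 0.00 over all measured genes. By rank from the highest difference, Has2 was number 53, Vcan 136, Scx 246 and Cd44 504.

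The control culture as reference gave differences of 1.85 for Has2, 3.16 for Vcan (at least 7.87-fold), 1.85 for Cd44 and 1.71 for Scx, all of which pass the rule of size. Has2, Vcan and Scx were thus at least 1 above both untreated cultures, as were 2.69% of 9029 genes. The Vcan probe detected in both cultures besides the main one differed from the vehicle culture by 1.20, a further one was detected with the 3 factors (6.01) and not with vehicle, and the other bright Cd44 probe by 0.81. In the limma fit over the 6 cultures, with the untreated cultures as a group of 2 and 1 residual degree of freedom, the 3-factor culture differed from their mean by 2.11 ± 0.43 for Has2 (SE; adjusted p = 0.246). The same fit gave 2.45 ± 0.63 for Vcan (adjusted p = 0.346), 1.56 ± 0.41 for Scx (adjusted p = 0.346) and 1.41 ± 0.50 for Cd44 (adjusted p = 0.577). With limma, 0 of 10250 genes had an adjusted p under 0.05 in this contrast, and 748 had an unadjusted p under 0.05.

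Genes of hyaluronan turnover split. Hyal1, a lysosomal hyaluronidase, was 4.33-fold higher in the 3-factor culture, at 8.61 against 6.50 with vehicle. Cemip, which starts the breakdown of extracellular hyaluronan, was 5.54-fold lower, at 10.23 against 12.70. Has1, another synthase, was detected in neither culture, and of 9 measured genes of this list 1 was higher and 1 lower, with a median of -0.02. Gfpt1 and Uap1, enzymes that supply hyaluronan precursors, differed by -0.03 and -0.10. Among other hyaluronan-binding proteins, Ptx3, a pentraxin of the hyaluronan-rich matrix around the ovulated egg, was 2.64-fold lower, 1 of 2 measured.

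Adamts1 and Adamts9, which cleave versican, were lower in the 3-factor culture: Adamts1 3.86-fold, at 5.89 against 7.84 with vehicle, and Adamts9 2.77-fold, at 9.20 against 10.67. They were 2 of 4 measured in the list, whose median difference was -0.96. Adamts4, another such protease, differed by 0.74, and the inhibitor Timp3 by -0.45. In chondroitin sulfate synthesis 3 of 12 measured genes were higher and 0 lower, with a median of 0.52. They were B4galt7, which builds the linker of the chain, 2.12-fold, and the sulfotransferases Chst11, at least 3.43-fold, and Chst15, at least 3.00-fold.

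Of 22 measured valve and tendon genes, 4 were higher and 7 lower, with a median of -0.33. The higher ones were the tendon transcription factor Mkx (1.27), the cartilage and cushion factor Sox9 (1.16), the matrix protein Fbln2 (1.0) and Thbs2 (1.19), of which Fbln2 and Thbs2 differed by only 0.42 and -0.02 from the control culture. The small proteoglycans Dcn, 11.6-fold (9.34 against 12.88), and Lum, at least 10.2-fold, the fibrillar collagen Col3a1, 6.35-fold, and elastin (Eln), at least 4.17-fold, were lower. Egr1, a factor upstream of tendon genes, fell by 1.22, Fmod by 1.36 and Matn2 by 1.68. Of 14 cushion regulators measured, 0 were higher and 2 lower, the growth factor Bmp4 (-1.57) and the cardiac transcription factor Gata4 (-1.08), with a median of 0.02. Gata4 differed by -0.15 from the control culture. Over the 6 lists, 8 of 63 measured genes were higher and 13 lower, where 5.28% of all 9183 measured genes were higher and 5.06% lower. Of the list genes called, 6 and 12 also differed by at least 1 in the same direction from the control culture. Over all genes, 2.69% of 9029 were higher than both untreated cultures, and the share lower than both is not given here.

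Cell type markers moved with this comparison. Macrophage and leukocyte markers were higher for 6 of 12 measured genes (median 0.99), with a mean level of 10.69 in the 3-factor culture and 9.70 in the vehicle culture. The mean of these markers was also 10.69 in the control culture. Epicardial and mesothelial markers were lower for 5 of 8 measured genes (median -1.40), among them Upk3b, at 10.37 against 12.58, and Tcf21, at 10.38 against 12.13. Smooth muscle and pericyte markers were lower for 3 of 7 (median -0.49) and erythroid markers for 4 of 4 (median -6.41), with no erythroid marker detected in the 3-factor culture. Cardiomyocyte markers were higher for 4 of 8 and lower for 3 of 8. Of the called markers, 4 epicardial, 3 erythroid and 2 cardiomyocyte markers were also at least 1 below the control culture. No called macrophage or smooth muscle marker, and no higher cardiomyocyte marker, differed that far from it in the same direction. The part of cell type content in the differences of Has2, Vcan, Cd44 and Scx from the vehicle or the control culture was not tested.

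**Figure D4:**
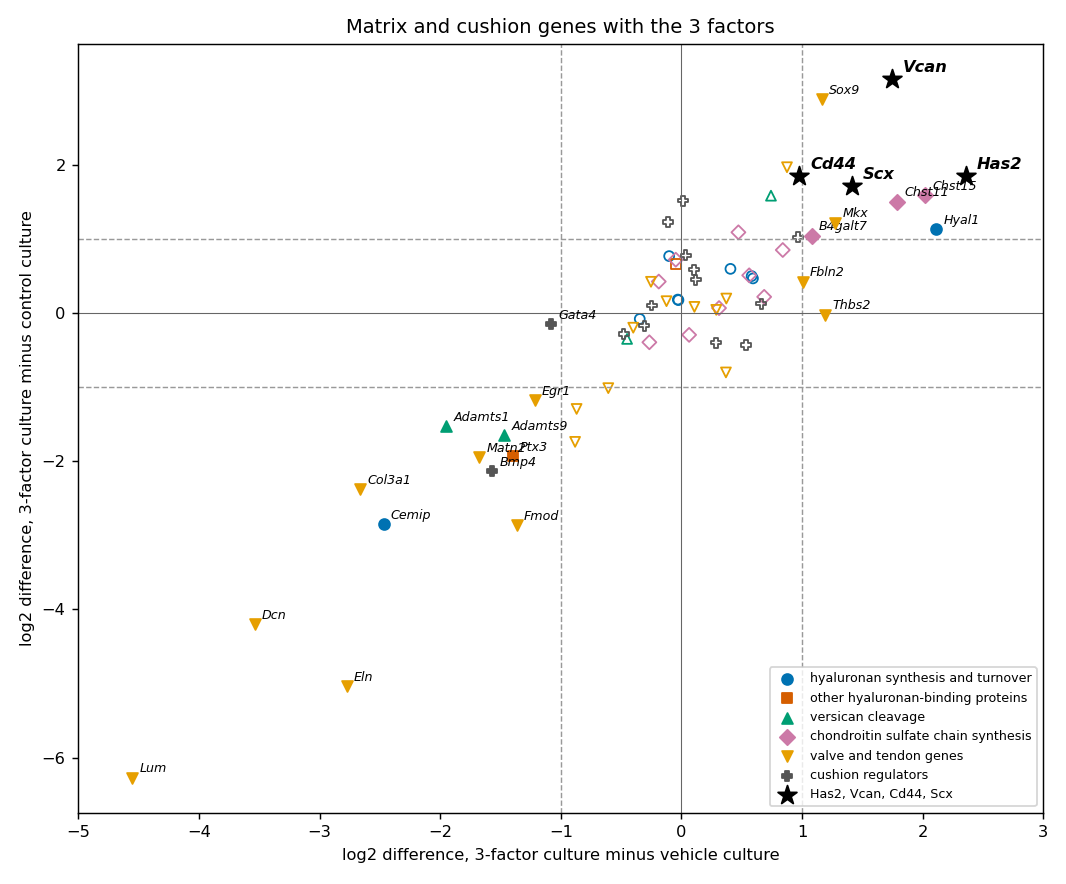
Log2 differences of the 3-factor culture from the vehicle culture (horizontal) and from the control culture (vertical), 1 point per measured gene of the 6 lists, filled and named where called against vehicle, with dashed lines at 1 and -1. Has2, Vcan and Scx lie at 2.36, 1.75 and 1.41 on the horizontal axis and Cd44 at 0.98, in the upper right, while Lum, Dcn and Eln lie lowest.

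PDGF-BB alone was compared with the control culture at both times, and the time points with each other. None of Has2, Vcan, Cd44 and Scx was called at 12 h or 24 h, and Hapln1 was not detected. At 12 h the differences were 0.28 for Has2, 0.87 for Vcan (at least 1.62-fold, since the control culture did not detect it), 0.53 for Cd44 and 0.27 for Scx, with 0 of 4 measured genes called, where 0.237% of 9686 genes were higher and 0.31% lower. At 24 h they were -0.85 for Has2, 0.65 for Vcan (at least 1.38-fold), 0.66 for Cd44 and 0.07 for Scx, again 0 of 4 called, with a background of 0.382% higher and 0.794% lower among 9698 genes. The comparisons share the control culture. Against the vehicle culture the signs of Vcan, Cd44 and Scx turned at both times, to -0.54, -0.35 and -0.02 at 12 h and -0.76, -0.21 and -0.22 at 24 h. Limma gave adjusted p-values of 1.0 for all 4 genes at both times.

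Between the times, Has2 was 2.18-fold lower at 24 h (5.35) than at 12 h (6.48), the 16th lowest difference of 9555 measured genes. It was the 1 called gene of 4, where 0.115% of genes were higher and 0.251% lower. At 24 h Has2 lay near the detection limit (detection p = 0.0053, lowest detected level 5.28), and its call was lost under the authors' processed values (-0.78) and other background corrections. The others differed by -0.22 (Vcan), 0.13 (Cd44) and -0.20 (Scx). Cardiomyocyte markers moved between the same arrays, 1 higher and 4 lower of 8 measured at 24 h, with Nppa, a natriuretic peptide of heart muscle, 36.3-fold lower, and 3 of 4 erythroid markers were higher; their part in the Has2 difference was not tested.

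The 6 lists of matrix, valve and cushion genes held calls with PDGF-BB only among valve and tendon genes. At 12 h, 1 of 67 measured genes was higher than in the control culture and 1 lower. At 24 h, 1 of 68 was higher and 4 lower. Over all measured genes, 0.237% were higher and 0.31% lower at 12 h, and 0.382% and 0.794% at 24 h. Sox9 was 2.17-fold higher at 12 h and 2.92-fold at 24 h, and Lum 2.34-fold and 3.11-fold lower. At 24 h Eln, 4.20-fold, Thbs2, 2.07-fold, and Fmod, which fell by 1.17 on the log2 scale, were lower as well, and Eln was 2.31-fold lower at 24 h than at 12 h. None of the genes of these 6 lists called against the control culture differed by at least 1 in the same direction from the vehicle culture: Sox9 there was -0.61 at 12 h and -0.18 at 24 h. Marker lists also held calls. At 12 h cardiomyocyte markers were higher for 3 of 8 and lower for 2, and smooth muscle markers higher for 1 of 6. At 24 h erythroid (3 of 4), epicardial (2 of 9) and smooth muscle markers (2 of 7) were higher. Cardiomyocyte (2 of 8) and endothelial markers (2 of 6) were lower. Actc1, Myl4 and Nppa (12 h, higher) and Tek (24 h, lower) also passed against vehicle. Their part was not tested. No gene of hyaluronan turnover, hyaluronan binding, versican cleavage or chondroitin sulfate synthesis was called at either time, the list medians lying between -0.72 and 0.15 against -0.01 and -0.02 over all genes.

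The receptor knockout was compared in hearts and in culture. In the hearts none of the genes described was called: Vcan differed by -0.05, Hapln1 by 0.61, Cd44 by -0.01 and Scx by -0.66, so 0 of 4 measured, where 0.191% of 8915 genes were higher and 0.449% lower. Hapln1 had the 168th highest difference of the measured genes and Scx the 174th lowest. In control hearts Hapln1 lay near the lowest detected level of the array (5.74 against 5.47). Has2 was detected in neither heart. Has2 in the knockout culture was 5.28, against 6.20 in the control culture, a difference of -0.92 just short of the rule. Cd44 differed there by -0.17 and Scx by 0.43, while Vcan and Hapln1 were not detected in either culture. None was called of 3 measured, with a background of 1.87% higher and 2.25% lower among 9762 genes. Against the vehicle culture calls were more common, with 861 genes higher and 556 lower over all genes, where the control culture gave 183 and 220. The knockout and vehicle cultures also lie in different sets of the authors' normalization. With that reference Cd44 passed the rule at -1.05 and so did Vcan at -1.57 (at least 2.21-fold), and Has2 was at -0.42. Limma gave an adjusted p of 1.0 for each of these genes in the knockout culture.

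Other genes of the lists were lower in the knockout culture in 9 of 67 measured cases and higher in 0. Over all 9762 measured genes, 1.87% were higher and 2.25% lower. All but Fbln1, 8 of the 9, were also at least 1 below the vehicle culture. They included Gfpt1, the enzyme that commits sugar to hyaluronan precursors (8.75 in the knockout culture, against 10.41 in the control culture), Adamts9 (8.81 against 10.84) and B3galt6, which builds the chondroitin sulfate linker (7.48 against 8.91). Sox9 (8.28 against 9.43), Col3a1 (8.02 against 9.16), Tgfb2 (5.93 against 7.21) and the cardiac factor Tbx20, at least 2.55-fold, were lower as well. So were the matrix protein Fbln1, 2.57-fold, and the collagen Col11a1, at least 1.67-fold. Markers moved here too: cardiomyocyte markers were lower for 5 of 8, erythroid markers for 3 of 4 and smooth muscle markers for 2 of 6, and macrophage markers were higher for 4 of 13 (mean level 11.49 in the knockout culture and 10.69 in the control culture). Of the 5 cardiomyocyte markers, 2 were also at least 1 below the vehicle culture, as were all the called erythroid and smooth muscle markers. All 4 macrophage markers were also at least 1 above it. The part of the markers in these differences was not tested.

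In the knockout hearts 3 genes of the lists were called. They were 1 of 8 measured in chondroitin sulfate synthesis, 1 of 20 valve and tendon genes and 1 of 17 cushion regulators. Over all 8915 measured genes, 0.191% were higher and 0.449% lower. The sulfotransferase Chst7 was at least 2.15-fold higher, Sox9 was 2.14-fold lower (8.0 against 9.10) and Snai2, a factor of epithelial to mesenchymal transition, at least 1.77-fold lower. Sox9 was thus the gene of these lists called lower both in the knockout hearts and in the knockout culture. Adamts9 differed by 0.84 in the hearts and Lum by -0.90, below the rule. Under the authors' processed values 0 of the list genes were called in the hearts. No marker list had a called gene in the hearts, with medians from -0.24 for macrophage to 0.31 for erythroid markers.

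**Figure D5:**
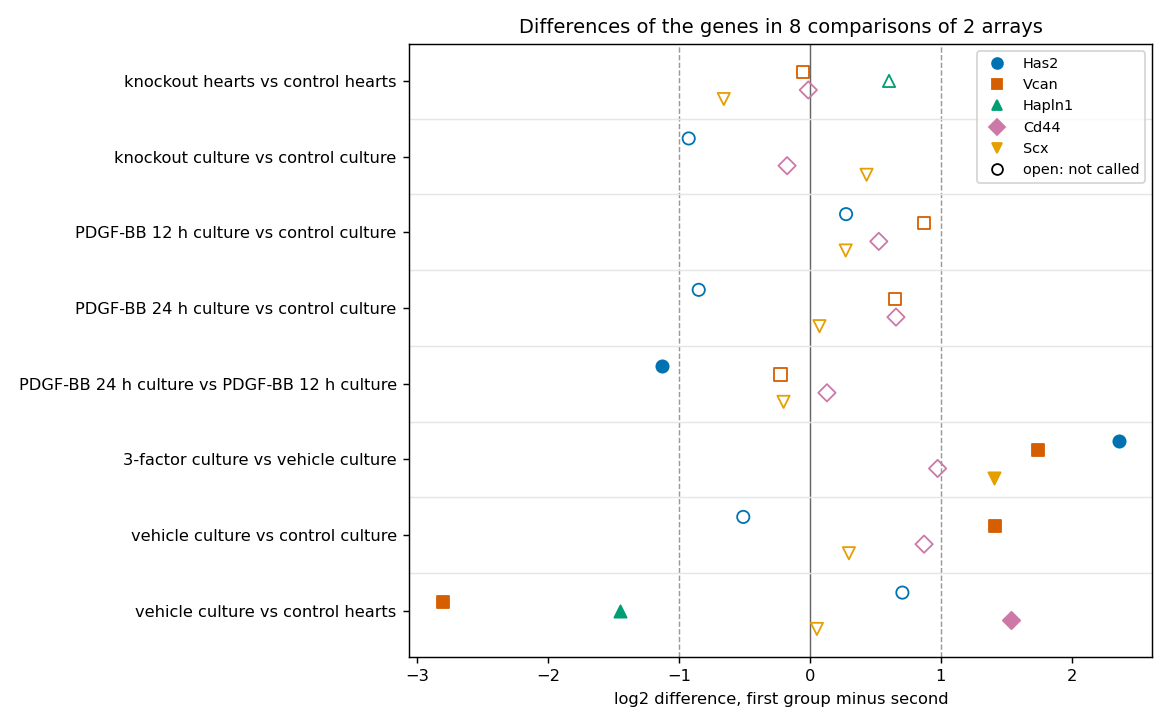
Log2 differences of Has2, Vcan, Hapln1, Cd44 and Scx in 8 comparisons of 2 arrays, first group minus second, filled where called and left out where detected on neither array; dashed lines mark 1 and -1. Filled points appear with the 3 factors (Has2, Vcan, Scx), between the PDGF-BB times (Has2), between the untreated cultures (Vcan) and between culture and hearts (Vcan, Hapln1, Cd44).

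The vehicle culture against the control hearts shows where the genes are found. Vcan was 6.97-fold lower in culture (6.40 against 9.20 in the hearts), and Hapln1 at least 1.26-fold lower. The Vcan difference was smaller by a further probe detected on both arrays (-1.39) and by the mean of detected probes (-1.98). Cd44 was 2.91-fold higher (11.03 against 9.49), Has2 differed by 0.71 (at least 1.17-fold, not detected in the hearts), and Scx by 0.05. Macrophage and leukocyte markers were higher in culture for 11 of 12 measured genes (median 3.07), and their part in the Cd44 difference was not tested. That made 1 higher and 2 lower of 5 measured, where 16% of 9661 genes were higher and 14.9% lower, so calls in either direction were common between culture and hearts. With the control culture in place of the vehicle culture the differences were -4.21 for Vcan, -1.39 for Hapln1, 1.22 for Has2, which then passed the rule, and 0.67 for Cd44, which no longer did. In the same comparison 16 of 24 measured valve and tendon genes were higher in culture (median 1.72) and 2 lower, the cartilage genes Col2a1, at least 10.3-fold, and Comp, at least 2.35-fold. The matrix protein Tnc was 51.9-fold higher in culture, the collagens Col1a1 24.4-fold, Col1a2 at least 16.2-fold and Col3a1 9.29-fold, and Fbln2 6.93-fold and Ccn2 6.83-fold.

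Genes of hyaluronan turnover differed both ways between this culture and the hearts, 3 higher and 3 lower of 9 measured (median 0.63). Over all 9661 measured genes, 16% were higher and 14.9% lower in this comparison. Cemip was 38.3-fold higher in culture, Gfpt1 8.0-fold and the lysosomal enzyme Hexa 2.30-fold, while Cemip2 was 6.75-fold lower, Ugp2, which makes UDP-glucose, 2.56-fold and Hyal2 2.26-fold. Of 17 cushion regulators 4 were higher and 7 lower (median -0.64). The growth factors Tgfb3 (11.6-fold), Bmp4 (5.92-fold) and Nrg1 (4.45-fold) and the transcription factor Snai1 (at least 5.71-fold) were higher. The Notch targets Hey2 (10.1-fold) and Hey1 (5.95-fold), the receptor Notch1 (at least 2.71-fold) and the factors Tbx20 (4.83-fold), Nfatc1 (3.20-fold) and Msx1 (at least 1.86-fold) were among the lower ones. Of 5 versican cleavage genes 3 were higher and 0 lower (median 2.48), Timp3 10.2-fold, Adamts9 9.23-fold and Adamts4 at least 4.99-fold. In chondroitin sulfate synthesis 1 of 10 was higher, Chst12 (6.17-fold), and 1 lower, Chst15 (at least 1.56-fold), with a median of 0.68. Such calls were no more common in that list than over all genes. Among other hyaluronan-binding proteins Ptx3 was at least 8.92-fold higher and Itih3 at least 1.58-fold lower, 1 each of 3 measured. Of 9 measured endothelial and endocardial markers all 9 were lower in culture (median -4.71), and 12 of 13 cardiomyocyte markers (median -7.21); their part in the Vcan and Hapln1 differences was not tested.

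Between the untreated cultures themselves, Vcan was called higher in the vehicle than in the control culture (1.41, at least 2.35-fold), 1 of 4 measured, a call lost with the authors' processed values (0.66), while Cd44 differed by 0.87, Has2 by -0.51 and Scx by 0.30. This Vcan difference was larger than those of 96.4% of 9757 measured genes, that of Cd44 larger than 85.2%, that of Has2 larger than 63.6% and that of Scx larger than 41.8%. Differences of Vcan and Cd44 of this size between a treated and an untreated culture lie within the spread of untreated pools. Vcan was not detected in the control culture, so its spread between the untreated cultures is known only as at least 2.35-fold, and whether the 3-factor differences (1.75 and 3.16) exceed it cannot be told. For Cd44 the 3-factor difference from vehicle (0.98) was close to that between the untreated cultures (0.87).

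By the same rule 3.29% of the genes were higher and 7.16% lower between these cultures, and 4 list genes were higher and 7 lower. Higher in the vehicle culture were Sox9 (1.72 on the log2 scale), Col11a1 (2.13-fold), Snai1 (2.53-fold) and Hey2 (at least 2.80-fold). Lower were Eln (-2.26 on the log2 scale), Lum (3.29-fold), Fmod (2.82-fold), Thbs2 (2.32-fold), Col5a2 (2.25-fold), the chondroitin sulfate enzyme Csgalnact1 (at least 2.37-fold) and Itih4 (at least 1.70-fold). Markers moved with them: erythroid markers were higher for 4 of 5 measured genes (median 3.94) and smooth muscle markers for 5 of 7 (median 1.04), cardiomyocyte markers were lower for 5 of 8 and higher for 1, and macrophage markers were lower for 3 of 13. Epicardial markers were higher for 2 of 8 and lower for 1, and endothelial markers were lower for 1 of 6. Their part in the Vcan difference was not tested.

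Genes with the most similar profiles over the 8 arrays were found by the root mean square distance between log2 levels, each centred on its own mean, among genes detected wherever the gene in question was. Those nearest to Has2 were Espn (0.33), Whrn (0.34) and Dyrk3 (0.41), and each of them was highest in the 3-factor culture. Nearest to Vcan were Csrp2 (0.51), Notch4 (0.51) and Hk1 (0.60), at larger distances than for any other gene described. Nearest to Cd44 were Atp13a3 (0.15), Creb3l2 (0.18) and Cdkn2a (0.18), and to Scx Prag1 (0.19), Rgs12 (0.22) and Smox (0.27). Hapln1 was nearest to Dnaic1 (0.08), Grb7 (0.09) and Abcg4 (0.10), which were likewise brightest in the knockout hearts and lay near 4.3 to 4.6 in every culture. Hapln1 was undetected in all 6 cultures, so its distances rest mostly on levels without detection. None of the 15 was another gene of hyaluronan or versican biology in the fixed lists.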

How the data were processed

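The authors hybridized RNA of 8 pools to Illumina mouse arrays and exported non-normalized bead intensities and detection p-values per probe with BeadStudio 3.3, per the submitters' processing notes and the file headers. The authors' deposited processed values are linear intensities that agree in distribution within 2 sets of 4 arrays; no source used here names their normalization. For the control and knockout cultures the label of the source is a whole heart; title and design text decided that they are cultures.

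Non-normalized intensities were background-corrected from the detection p-values (nec, offset 16) and quantile-normalized over all 8 arrays with limma 3.58.1 in R 4.3.3. The resulting log2 values replace the deposited scale in every comparison. A gene took its probe with the highest mean level. Of the probes, 34885 had 1 gene symbol, 18 several and 10378 none. Differences of 2 arrays have no test; limma (lmFit, eBayes, Benjamini-Hochberg over 10250 genes) was fitted over the 6 cultures. Where the dimmer array did not detect a gene, its bound was taken against the lowest detected level of that array or the gene's own level, whichever was higher. Summaries used Python 3.11.15 with pandas 2.3.3. The genes and lists, and the rule for named genes (all called list genes up to 6 per list and direction, up to 2 others, and the 3 nearest profiles), were chosen with earlier results of these data known. Scripts were tested on simulated data. The number of arrays limits precision. Alternatives were no background correction, normexp with offset 50, median centring, the authors' values, the mean of detected probes, other detection and size limits, and the other untreated culture.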

Additional observations from a re-analysis of the deposited data

Results flagged for a closer look

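Scx differed from its control in opposite directions with the receptor knockout, by -0.66 in the hearts and 0.43 in the cultures, a gap of -1.09 between the tissues. Against the vehicle culture, Scx in the knockout culture differed by only 0.13, and the untreated cultures differed by 0.30 for Scx. Has2 differed from the control culture in opposite directions with time of PDGF-BB, by -0.85 at 24 h and 0.28 at 12 h, a gap of -1.13. Each effect rests on 1 array per group, and the difference between the groups was not tested.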

How the results depend on the processing

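Of 180 differences of the genes under alternatives, 151 kept their direction and their side of the rule of size, 29 did not, and 0 called differences changed sign. With the 3 factors, Has2 (1.64 to 2.36), Vcan (1.32 to 3.16) and Scx (1.13 to 1.71) were called under every alternative run, and Cd44 also passed under median centring (1.03), the authors' values (1.0) and against the control culture (1.85). Counts of called genes moved as follows. In the knockout hearts 0 became 2 at a limit of 1.5-fold. In the knockout culture 0 became 1 with median centring, 1 at 1.5-fold and 2 against the vehicle culture. That last reference gave 861 genes higher and 556 lower over all genes. With PDGF-BB at 12 h 0 became 1 with median centring and 1 at 1.5-fold, and at 24 h 0 became 3 at 1.5-fold. Between the PDGF-BB times 1 became 0 without background correction (Has2 -0.73), with normexp (-0.62) and with the authors' values (-0.78). Between the untreated cultures 1 became 0 under those settings (Vcan 0.87, 0.74 and 0.66) and with the mean of probes (1.0, just under the limit before rounding), and 2 at 1.5-fold. Against the hearts, Hapln1 was at -0.92 with normexp and Cd44 at 0.77 with the mean of probes. The cause of these moves was not tested.

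Over all genes, background settings moved calls by over 1.5 times. With normexp, 5 genes were higher and 9 lower in knockout hearts (17 and 40 as reported), 85 and 92 in the knockout culture (183 and 220), 5 and 9 with PDGF-BB at 12 h (23 and 30), 16 and 17 at 24 h (37 and 77), 5 and 8 between the times (11 and 24), 290 and 249 with the 3 factors (485 and 465) and 123 and 305 between the untreated cultures (321 and 699). Higher genes were 43.4% of calls at 12 h and 62.3% with median centring, 32.5% and 49.7% at 24 h, and 31.5% and 42.0% between the untreated cultures, where the authors' values gave 2.98% with a shift of the median gene by -0.35. Called list genes moved from 3 to 0 in the knockout hearts with normexp, from 9 to 23 in the knockout culture against vehicle, from 2 to 8 at 12 h against vehicle, from 5 to 3 at 24 h and from 11 to 7 between the untreated cultures with normexp. No paired analysis was possible because each group is 1 array.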
